A study of Mus musculus with 6 samples.

Results

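The genes described here are those of the tumour necrosis factor (TNF) superfamily of ligands, their receptors, the caspases, and a few adaptors and kinases that connect them. They were chosen by name: probes whose single platform gene symbol begins with Tnfsf, Tnfrsf, Casp or Ripk and a digit, or is Tnf, Lta, Ltb, Fas, Fasl, Cd40, Cflar, Tradd or Fadd. The rule took 70 of 16281 probes, for 45 of 10698 named genes: 13 ligands, 19 receptors, 8 caspases and 5 adaptors or kinases. Casp8ap2, which the rule takes because of its symbol, encodes no caspase and is counted among the adaptors. Ripk1, Ripk2 and Tradd were not analysed here.

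The cells were RAW 264.7, a mouse macrophage line, given 100 ng/ml lipopolysaccharide (LPS, the endotoxin of Gram-negative bacteria) with 100 pM LPS-binding protein (LBP, which passes LPS to its receptor), or left untreated. Both were cultured for 2 h. Each of 6 two-colour arrays carried 1 treated and 1 untreated RNA, with the treated RNA in Cy5 on 3 arrays and in Cy3 on the other 3. The arrays are numbered as sets 1 to 3 in each orientation, and nothing in the labels says that the sets came from separate cultures. The p-values therefore measure only the spread between the averages of these sets, which may be technical. The cells are 1 transformed line, LPS and LBP were given together, and no sample with either alone was analysed here.

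TNF superfamily ligands are mostly trimers on the cell surface or shed from it, and each binds 1 or a few receptors of the matching family. Receptors with a death domain, such as Fas and the ubiquitous TNF receptor, can recruit the adaptor FADD and initiator caspases, which start apoptosis. Others recruit TRAF adaptors and turn on NF-κB, which in turn raises survival genes such as Cflar, the inhibitor of the initiator step. Macrophages are a main source of TNF after contact with LPS, and some caspases, Casp1 and Casp4 among them, serve inflammation and not apoptosis.

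Ratios are log2 of treated over untreated, with the sign turned on arrays whose treated RNA carried Cy3, and an exact 0 in the table was treated as no measurement. A gene is the mean of its probes with a value on all 6 arrays. Both arrays of a set were averaged, and limma tested whether the mean of 3 sets differed from 0, with p-values adjusted by Benjamini and Hochberg over all 11231 features and a threshold of 0.05. "Rose" and "fell" are used of genes past it. Values after ± are the SD of 3 sets. Where the 2 arrays of a set deviate in opposite directions, their average cancels this. Such spread is left out of the SD and the p-values. Casp12, with arrays from -0.86 to 0.89, had an SD of 0.02. A ratio carries no transcript level, so levels of different genes cannot be compared, and signal over background is unknown. Of the 70 probes, 53 had a value on all arrays, 13 on some and 4 on none. Among these genes 75.7% of probes were complete, against 81.2% of the whole platform. That left 39 of the 45 genes in the test, and Casp14, Fasl, Tnfsf4, Tnfrsf8, Tnfrsf21 and Tnfrsf25 outside it.

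Per the labels the cells are macrophages. Of 7 macrophage markers tested, Adgre1 and Spi1 rose, Csf1r and Fcgr1 fell, and Lyz2, Cd68 and Cd14 did not pass. None of 8 lymphocyte markers (-0.06 to 0.22) and none of 8 fibroblast, endothelial and epithelial markers (-0.20 to 0.19) passed by limma. In each of these 2 groups 2 markers had an unadjusted p under 0.05, as had 3150 of all 11231 features. These are ratios and do not show whether a marker was present.

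Start regions of 4 raised members are shown because Tnf, Lta and Ltb are neighbouring ligand genes on chromosome 17 that all rose, and Casp4 was the caspase that rose. Each is the 250 bases before a RefSeq transcript start (GRCm38.p6), 5′ to 3′ on the gene's strand. Tnf is chr17:35202008-35202257 (minus strand), Ltb chr17:35194257-35194506 (plus), Lta chr17:35205352-35205601 (minus) and Casp4 chr9:5308599-5308848 (plus). Capitals mark the motifs that were searched: the κB consensus bound by NF-κB, the AP-1 motif TGANTCA, and TATAAA, each on both strands.
Tnf: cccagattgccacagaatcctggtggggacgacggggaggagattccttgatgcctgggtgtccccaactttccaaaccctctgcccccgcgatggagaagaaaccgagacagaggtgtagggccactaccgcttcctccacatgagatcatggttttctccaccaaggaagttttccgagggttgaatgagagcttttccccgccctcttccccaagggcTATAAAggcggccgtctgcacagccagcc
Ltb: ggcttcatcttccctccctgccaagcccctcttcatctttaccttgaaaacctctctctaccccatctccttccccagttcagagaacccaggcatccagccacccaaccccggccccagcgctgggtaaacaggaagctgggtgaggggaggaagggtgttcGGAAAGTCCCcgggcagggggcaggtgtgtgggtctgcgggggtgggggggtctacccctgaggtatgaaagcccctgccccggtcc
Lta: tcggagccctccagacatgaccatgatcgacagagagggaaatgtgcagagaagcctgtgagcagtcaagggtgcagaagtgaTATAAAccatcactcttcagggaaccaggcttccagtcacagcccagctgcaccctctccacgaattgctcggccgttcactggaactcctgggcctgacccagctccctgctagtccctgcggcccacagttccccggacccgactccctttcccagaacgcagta
Casp4: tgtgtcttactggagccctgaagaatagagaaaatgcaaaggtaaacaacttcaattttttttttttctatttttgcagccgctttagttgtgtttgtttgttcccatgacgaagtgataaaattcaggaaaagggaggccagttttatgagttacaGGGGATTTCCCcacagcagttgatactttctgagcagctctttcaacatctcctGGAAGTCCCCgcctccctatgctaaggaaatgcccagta

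The Tnf region held TATAAA at bases -29 to -24 before the start, and the Lta region held it farther out, from -167 to -162. The Ltb region had 1 κB match (-87 to -78). The Casp4 region had 3, of which 2 overlap (-93 to -84 and -92 to -83), and the third runs from -39 to -30. Of the 45 genes, 37 matched the promoter table, with 41 start regions. The κB consensus was in 5 of the 41 (12.2%), against 7.25% of all 32851 start regions, TGANTCA in 5 (12.2%), against 6.75%, and TATAAA in 6 (14.6%), against 12.4%. Among the 12 regions of genes that rose, 3 held a κB match, those of Ltb and both starts of Casp4. The 2 Casp4 regions overlap and hold the same matches, so by gene this is 2 of 11. Over all matched members it is 4 of 37 genes, with Tnfrsf8 and Tnfrsf25, which were not tested, among them. Of the 6 matched genes above 2-fold, 1 held a κB match, Ltb. The 7.25% is a share of start regions, and no share by gene over all genes is given beside these counts. Cd40 and Tnfsf9, which rose, had no region in the promoter table. The Fas region had TGANTCA (-211 to -205), and the Cflar region 2 overlapping TATAAA matches. A match of letters is a description of the window, not a binding site.

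After LPS and LBP, 13 of the 39 tested genes rose (33.3%) and 3 fell (7.69%). Over all features 7.35% rose and 7.45% fell, 14.8% in all. In a limma fit to the 6 single arrays with no replicate block, 11 members passed upward and 1 downward. In that fit 690 of all 11231 features passed upward and 686 downward. Of the 39, 8 had a mean above 2-fold, against 1.1% of all features. The median of the 39 was 0.05, against -0.00 for all features, and the median of the absolute means was 0.12, against 0.07. By role, 4 of 11 ligands rose and 0 fell, 7 of 16 receptors rose and 1 fell, 1 of 7 caspases rose and 0 fell, and 1 of 5 adaptors or kinases rose and 2 fell. By limma at an unadjusted p under 0.05, 0 ligands and 1 caspase, Casp6, were lower. At that level 3150 of all 11231 features passed in either direction.

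**Figure D1:**
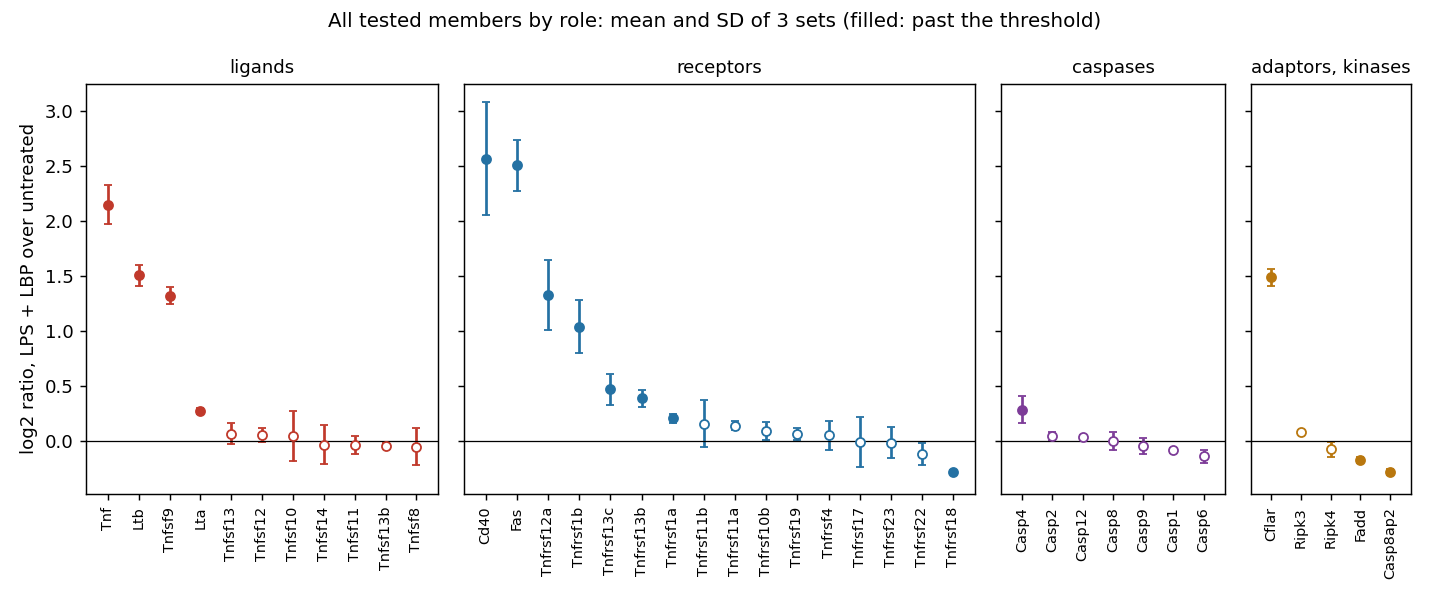
Mean log2 ratio of treated over untreated cells (vertical axis) for the 39 tested genes, in panels for ligands, receptors, caspases, and adaptors or kinases. Bars are the SD of 3 sets and filled points passed the threshold. A few ligands and receptors and Cflar stand above 1, and the caspases lie between -0.14 and 0.28.

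The medians of the roles were 0.05 for ligands, 0.15 for receptors, 0.00 for caspases and -0.08 for adaptors or kinases. The median absolute means were 0.05 for ligands, 0.18 for receptors, 0.05 for caspases and 0.18 for adaptors or kinases. The highest mean was 2.15 among ligands, 2.57 among receptors, 0.28 among caspases and 1.49 among adaptors or kinases. The receptor median was 0.14, 0.17 and 0.19 in sets 1, 2 and 3, and the caspase median -0.08, 0.01 and 0.03. No test between roles was made.

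Among the ligands, Tnf, the pyrogenic cytokine that gives the family its name, was measured by 3 probes. With the treated RNA in Cy5 it stood at 2.09, 2.57 and 2.18 in sets 1 to 3, and on the swapped arrays at 1.96, 2.13 and 1.96. All 6 values lay well above 0 and the 2 orientations overlapped. The mean was 2.15 ± 0.18 (4.44-fold, n = 3 sets, limma adjusted p = 2.23e-05), which ranked 27 of 11231 features. Its probes had means of 2.33, 2.18 and 1.94, so each of them gave the rise.

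Ltb encodes lymphotoxin beta, which anchors lymphotoxin at the cell surface. It stood at 0.86, 1.15 and 0.95 with the treated RNA in Cy5, and at 2.20, 2.04 and 1.85 on the swapped arrays. Every array was positive, but the orientations did not overlap, and the difference between them passed its own test (limma adjusted p = 0.0424). The mean was 1.51 ± 0.10 (2.84-fold, adjusted p = 2.47e-05), with orientation means of 0.99 in Cy5 and 2.03 in Cy3.

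Tnfsf9, a costimulatory ligand for activated T cells, was the ligand gene with the narrowest spread among those above 2-fold. It stood at 1.20, 1.28 and 1.28 with the treated RNA in Cy5 and at 1.29, 1.51 and 1.38 on the swapped arrays. The mean was 1.32 ± 0.07 (2.50-fold, adjusted p = 2.87e-05). The swapped arrays ran slightly higher, with no overlap, but this difference did not pass (adjusted p = 0.338).

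Lta, the gene of the soluble lymphotoxin that shares the receptors of TNF, rose far less than its neighbours. Its values were 0.25, 0.02 and 0.28 with the treated RNA in Cy5 and 0.32, 0.55 and 0.20 on the swapped arrays. All were above 0, that of set 2 barely so in the first orientation. The mean was 0.27 ± 0.03 (1.20-fold, adjusted p = 0.0109). Its adjusted p was 0.0511 without set 1 and 0.107 without set 3.

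The other 7 tested ligands lay between -0.05 and 0.07, with limma adjusted p of at least 0.505. They were Tnfsf10 (TRAIL, which triggers death receptors), Tnfsf11 (RANKL, which drives osteoclast formation), Tnfsf12 (TWEAK), Tnfsf13 and Tnfsf13b (APRIL and BAFF, survival factors of B cells), Tnfsf14 (LIGHT) and Tnfsf8. Several of them were poorly reproduced between arrays. Tnfsf10 ranged from -0.90 to 0.62. The SD of its sets, 0.23, was the widest among the ligands. For Tnfsf8, 1 of 2 probes stood at -1.46, -0.76 and -1.24 with the treated RNA in Cy5 and at 1.73, 0.48 and 0.83 on the swapped arrays. As deposited that probe leaned to Cy3 on all 6 arrays, whichever RNA was in it, and its mean of -0.07 says little about the treatment. The single complete probes of Tnfsf12 and Tnfsf13 did likewise, that of Tnfsf12 toward Cy5 (orientation means 0.36 and -0.26) and that of Tnfsf13 toward Cy3 (-0.16 and 0.29, with 1 array at 0.00).

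Fasl, the ligand of Fas, had values on 4 arrays, 0.37 and 0.31 in Cy5 orientation and -0.24 and 0.25 in the swapped one. The 2 probes of Tnfsf4, the OX40 ligand, had means of 0.28 on 4 arrays and 0.25 on 5. Neither gene was tested.

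**Figure D2:**
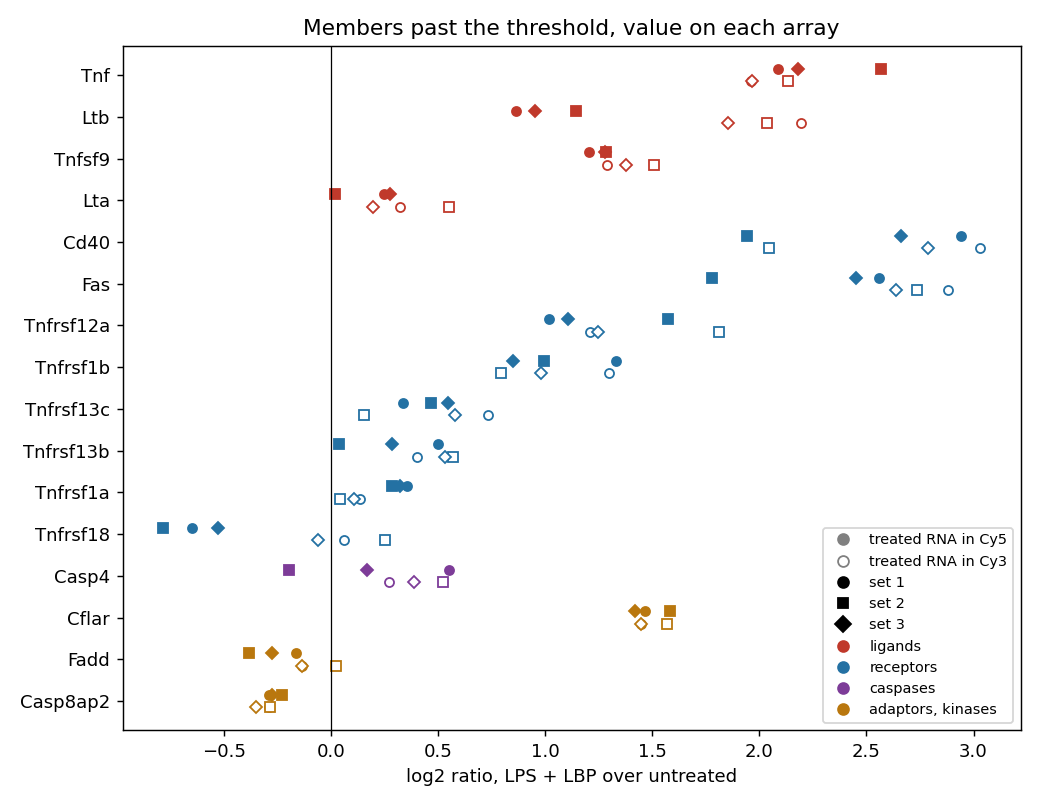
Log2 ratio of treated over untreated cells on each array (horizontal axis) for the 16 members past the threshold. Filled points had the treated RNA in Cy5 and open points had it in Cy3, and shapes mark the sets. The 8 genes above 1 on average are positive on all arrays, with the orientations apart for Ltb, while Tnfrsf18 lies below -0.5 on the filled points and near 0 or above on the open ones.

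Among the receptors, Cd40, through which T cells activate macrophages, had the highest mean of all members. It stood at 2.94, 1.94 and 2.66 with the treated RNA in Cy5 and at 3.03, 2.05 and 2.79 on the swapped arrays. The orientations matched closely and the sets did not, with set 2 lowest in both. The mean was 2.57 ± 0.51 (5.93-fold, limma adjusted p = 0.000332), and it was 2.86 without set 2.

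Fas, the death receptor bound by Fas ligand, stood at 2.56, 1.78 and 2.45 with the treated RNA in Cy5 and at 2.88, 2.74 and 2.64 on the swapped arrays. All arrays were far above 0, and the lowest was again of set 2. The orientations did not overlap, although their difference did not pass (adjusted p = 0.210). The mean was 2.51 ± 0.23 (5.69-fold, adjusted p = 2.33e-05), rank 21 of all features. Its 2 probes had means of 2.82 and 2.20.

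Tnfrsf12a, the receptor of TWEAK, stood at 1.02, 1.57 and 1.10 with the treated RNA in Cy5 and at 1.21, 1.81 and 1.24 on the swapped arrays. Here set 2 was the highest in both orientations. The mean was 1.33 ± 0.32 (2.51-fold, adjusted p = 0.000815).

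The 2 receptors of TNF itself differed in size. Tnfrsf1b, the receptor that lacks a death domain, stood at 1.33, 0.99 and 0.85 with the treated RNA in Cy5 and at 1.30, 0.79 and 0.98 on the swapped arrays. Set 1 was the highest in both orientations. The mean was 1.04 ± 0.24 (2.06-fold, adjusted p = 0.000833).

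Tnfrsf1a, the death-domain receptor found on most cells, stood at 0.35, 0.28 and 0.32 with the treated RNA in Cy5 and at 0.14, 0.04 and 0.11 on the swapped arrays. All values were positive and small, and the orientations did not overlap. The mean was 0.21 ± 0.04 (1.15-fold, adjusted p = 0.0305), with 2 probes at 0.22 and 0.20. Without set 1 its adjusted p was 0.100, and without set 3 it was 0.226.

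Of 3 receptors of the B cell survival factors BAFF and APRIL, 2 rose, and Tnfrsf17 (BCMA) stood at -0.01 ± 0.23. Tnfrsf13c, the BAFF receptor, had a mean of 0.47 ± 0.14 (1.38-fold, adjusted p = 0.00489), with arrays from 0.15 to 0.73. Tnfrsf13b, also called TACI, had a mean of 0.39 ± 0.08 (1.31-fold, adjusted p = 0.00434). That mean joins probes that disagree: 1 stood between 0.22 and 1.43 with a mean of 0.93, and the other between -0.37 and 0.05 with a mean of -0.16 (adjusted p = 0.0886 as a single probe). The range of 1.09 between them was the largest among the 13 members with several complete probes, whose median range was 0.08. Without set 3 the adjusted p was 0.0692 for Tnfrsf13c and 0.0687 for Tnfrsf13b.

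Tnfrsf18, or GITR, a receptor best known from regulatory T cells, was the receptor that passed in the downward direction. It stood at -0.65, -0.78 and -0.53 with the treated RNA in Cy5 and at 0.06, 0.25 and -0.06 on the swapped arrays. The orientation means were -0.65 and 0.08, so the arrays of the swapped orientation did not show the fall. The set means, -0.30, -0.27 and -0.29, were close together and gave -0.29 ± 0.02 (1.22-fold lower, adjusted p = 0.00827). The difference between orientations had adjusted p = 0.0529. In fits to single arrays blocking on the set gave adjusted p = 0.0621 for the fall and leaving the block out gave 0.323. Without set 3 it was 0.110. A second Tnfrsf18 probe, with values on 4 arrays, had a mean of 0.05.

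The remaining 8 tested receptors lay between -0.12 and 0.16, with adjusted p of at least 0.107. Tnfrsf10b, the mouse death receptor for TRAIL, stood at 0.09 ± 0.08 (adjusted p = 0.329). Tnfrsf22 and Tnfrsf23, mouse decoy receptors for TRAIL with closely similar sequences, stood at -0.12 and -0.02. The specificity of their probes was not tested. Tnfrsf11a (RANK) stood at 0.14 and Tnfrsf11b (osteoprotegerin, the decoy for RANKL) at 0.16. The others were Tnfrsf4 (0.05), Tnfrsf19 (0.07) and Tnfrsf17. Of the untested ones, Tnfrsf21 had a mean of -0.08 and Tnfrsf25 of -0.25 on 5 arrays each. The 2 probes of Tnfrsf8 had means of -0.13 and -0.22, also on 5 arrays each.

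Ligands were set beside their receptors, as a description. A total of 16 known ligand and receptor pairs, including Cd40lg and Ltbr, had both partners tested. Both rose in 4 pairs, those of Tnf and Lta with Tnfrsf1a and Tnfrsf1b. The receptor alone rose in 5, the ligand alone in 1, and neither in 6. Without set 1, and likewise without set 3, both partners rose in 1 pair, that of Tnf with Tnfrsf1b. Cd40 rose while Cd40lg, a T cell gene, stood at -0.02. Tnfrsf12a rose and Tnfsf12 stood at 0.05, on a probe that leaned to Cy5 on all 6 arrays. Ltb rose and its receptor gene Ltbr stood at -0.08 (adjusted p = 0.333). Many of these pairs share a gene.

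**Figure D3:**
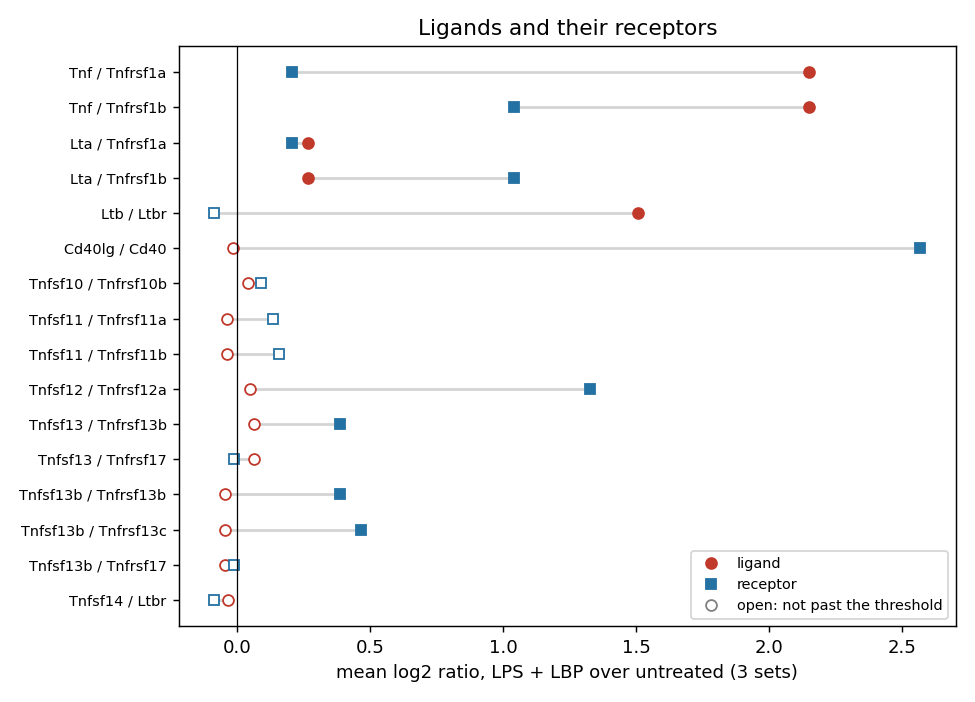
Mean log2 ratio of treated over untreated cells (3 sets, horizontal axis) of the ligand (circles) and the receptor (squares) of 16 pairs. Open symbols did not pass the threshold. Both symbols are filled in the 4 pairs of Tnf and Lta with the TNF receptors.

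Among the caspases, Casp4 was the one that rose. Mouse Casp4, also known as caspase-11, binds LPS in the cytosol and drives the noncanonical inflammasome. It stood at 0.55, -0.20 and 0.17 with the treated RNA in Cy5 and at 0.27, 0.52 and 0.39 on the swapped arrays. Of 6 arrays 5 were positive, and the negative one was of set 2. The mean was 0.28 ± 0.12 (1.22-fold, limma adjusted p = 0.0262), from probes with means of 0.40 and 0.16. It did not pass without set 1 (adjusted p = 0.0896), without set 3 (0.184), or in a fit to single arrays with no block (0.125).

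Casp1, which matures interleukin 1 beta in the inflammasome, stood at -0.09 ± 0.02 (limma adjusted p = 0.269), with arrays from -0.27 to 0.14. Its orientation means were -0.24 in Cy5 and 0.07 in Cy3, so the small SD comes after averaging unlike orientations. Casp12, of the same gene cluster, stood at 0.04 ± 0.02, with arrays from -0.86 to 0.89. The initiators of apoptosis did not pass either. Casp8, the caspase recruited by death receptors, had arrays from -0.40 to 0.53 and a mean of 0.00 ± 0.08 (adjusted p = 0.999). Casp9, the initiator of the mitochondrial pathway, stood at -0.05 ± 0.07. Casp6, an executioner, was negative on 6 of 6 arrays at -0.14 ± 0.06, with adjusted p = 0.108, and 0.0325 with the set as a block. For Casp2 the probes differed, with means of 0.24 (adjusted p = 0.0188 as a single probe) and -0.16. Casp14, a caspase of the epidermis, had a mean of 0.03 on 5 arrays.

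Of the adaptors and kinases, Cflar, the catalytically inactive relative of Casp8 that blocks its activation at death receptors, rose. It stood at 1.46, 1.58 and 1.42 with the treated RNA in Cy5 and at 1.45, 1.57 and 1.44 on the swapped arrays. The 6 values were nearly the same in both orientations. The mean was 1.49 ± 0.08 (2.80-fold, adjusted p = 2.23e-05), rank 70 of all features.

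Fadd, the adaptor that joins death receptors to Casp8, stood at -0.16, -0.38 and -0.28 with the treated RNA in Cy5 and at -0.14, 0.02 and -0.13 on the swapped arrays. Of 6 arrays 5 were negative. The mean was -0.18 ± 0.03 (1.13-fold lower, adjusted p = 0.0463), just inside the threshold. It came from 1 of 2 probes, at -0.37 on average and negative on every array, and the other stood at 0.01. Without set 1, 2 or 3 the adjusted p was 0.0927, 0.0932 or 0.305.

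Casp8ap2, also called FLASH, which acts in histone mRNA processing, stood at -0.29, -0.23 and -0.28 with the treated RNA in Cy5 and at -0.29, -0.29 and -0.35 on the swapped arrays. All 6 values were negative and close together. The mean was -0.29 ± 0.03 (1.22-fold lower, adjusted p = 0.00848), and without set 3 the adjusted p was 0.115. Ripk3, the kinase of necroptosis, stood at 0.08 ± 0.01 (adjusted p = 0.297). Ripk4, a kinase of keratinocytes, stood at -0.08 ± 0.07 (adjusted p = 0.382), with -0.43 on average in Cy5 orientation and 0.28 in the swapped one. Its other probe, with values on 5 arrays, had a mean of -0.22.

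Several members lie next to each other in the genome, and neighbours did not always move alike. No other protein-coding gene lies between Cflar and Casp8 on chromosome 1 in the RefSeq annotation (GRCm38.p6), and Cflar stood at 1.49 and Casp8 at 0.00. The order Ltb, Tnf, Lta on chromosome 17 went with means of 1.51, 2.15 and 0.27. On the same chromosome Tnfsf9, Cd70 and Tnfsf14 are adjacent, with means of 1.32, -0.03 and -0.03. Casp1, Casp4 and Casp12 on chromosome 9 stood at -0.09, 0.28 and 0.04.

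The 2 dye orientations gave a check of each probe. A total of 2 of the 39 genes, Ltb and Ripk4, differed between them by limma, against 0.499% of all features. Of the 53 complete probes, 4 leaned to the same dye on all 6 arrays as deposited, and they were those of Ripk4, Tnfsf12, Tnfsf13 and 1 of Tnfsf8. The share of such probes on the whole platform was not counted, so the 4 cannot be called many or few. Orientation means also lay apart for raised genes, at 2.49 in Cy5 and 3.14 in Cy3 on 1 Fas probe and at 0.61 and 1.26 on 1 Tnfrsf13b probe. All 6 arrays had the same sign for 15 of the 39 genes, against 19.1% of all features.

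**Figure D4:**
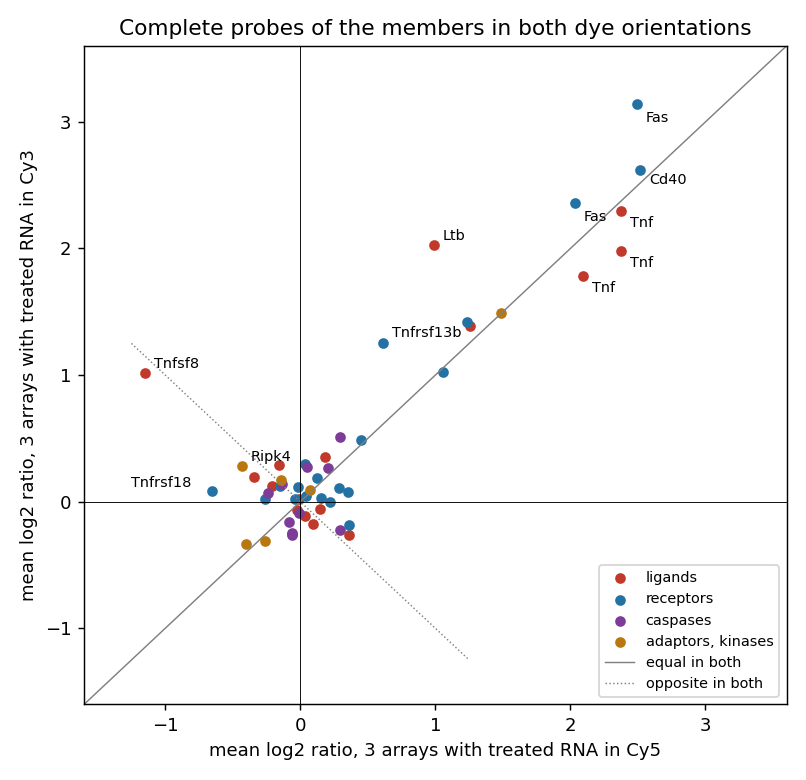
Mean log2 ratio of treated over untreated cells for the 53 complete probes of the members, averaged over the 3 arrays of the Cy5 orientation (horizontal axis) and the 3 of the Cy3 orientation (vertical axis). The solid line marks equal ratios and the dotted line opposite ones. Probes of Fas, Cd40 and Tnf are positive in both orientations, Ltb lies above the solid line, and 1 probe of Tnfsf8 lies close to the dotted line.

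Genes of the same pathways outside the naming rule were read from 4 lists. Of 7 family genes with other symbols (Cd40lg, Cd70, Cd27, Ltbr, Ngfr, Eda and Edar), 0 passed by limma. Of 21 genes of the TNF receptor signalling complex and its regulators 9 rose and 3 fell, with a median of 0.08, where 7.35% of all features rose and 7.45% fell. The highest were Traf1, a signalling adaptor (2.59 ± 0.23), Tnip1, a partner of A20 (1.86 ± 0.11), and Birc3, a ubiquitin ligase of the receptor complex (1.49 ± 0.10). Adam17, the protease that sheds TNF, rose 1.53-fold (0.61 ± 0.07, adjusted p = 0.000598). The lower ones were Tab1 (-0.63 ± 0.08) and Map3k14 (-0.54 ± 0.12), kinase pathway genes, and Map3k5 (-0.21 ± 0.07). Map3k5 had adjusted p = 0.123 without set 1 and 0.249 without set 3.

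Of 19 genes of the mitochondrial and execution steps of apoptosis 3 rose and 4 fell, with a median of -0.01, beside the same 7.35% and 7.45% of all features. Bcl2l11, which encodes the death-promoting protein BIM, rose 2.98-fold (1.58 ± 0.13, adjusted p = 3.1e-05). Mcl1 (0.90 ± 0.09) and Bcl2l1 (0.46 ± 0.24), which encode survival proteins, rose too. Bcl2l1 had adjusted p = 0.0633 without set 1 and 0.147 without set 3. The lowest were Bcl2 (-0.38 ± 0.03), Apaf1, the scaffold that activates Casp9 (-0.34 ± 0.06), and Dffb, the nuclease of DNA fragmentation (-0.29 ± 0.10), which had adjusted p = 0.0673 without set 1 and 0.0837 without set 3.

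Of 18 inflammasome and related genes listed, only 7 had a probe, and the sensor genes Nlrp3, Aim2 and Nlrc4 were among those without. Of these 7 genes 3 rose and 0 fell, with a median of 0.22 (all features: 7.35% rose, 7.45% fell). Those that rose were the cytokine genes Il1b (3.98 ± 0.12) and Il1a (2.54 ± 0.40), and Bcl10, an adaptor of NF-κB activation (0.76 ± 0.04). Il18 (-0.00 ± 0.04) and the inflammasome adaptor gene Pycard (-0.13 ± 0.23, limma adjusted p = 0.423) did not pass. Neither did Mefv (0.22 ± 0.13, adjusted p = 0.0625) or Naip2 (-0.12 ± 0.06, adjusted p = 0.151).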

How the data were processed

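Per the labels, total RNA of treated and untreated RAW 264.7 cells was hybridised to 6 two-colour arrays in 3 dye-swapped sets. The authors deposited log2 ratios of the channels, 1 per probe and array. The base follows from the decimals: dividing by log2 of 10 left 87.3% to 92.8% of an array's non-zero values with at most 7 decimals (tolerance 0.001 of the last). Cy5 over Cy3 is the likely direction from the labels' channel names; no source states it. The sources used here do not give the dye normalization or background correction. Precision is limited by the number of arrays.

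Exact zeros (9.12% to 12.4% of an array) were taken as missing. Probes were named from GEO's platform annotation (13738 with 1 symbol, 52 with several, 2491 with none); all 45 member genes matched RefSeq (GRCm38.p6) by gene ID. Complete probes of a gene were averaged, ratios of swapped arrays multiplied by -1, and arrays of a set averaged. limma 3.58.1 (R 4.3.3, lmFit and eBayes, two-sided) was fitted to 11231 features. The fit was also run on simulated, independent set values with known changes. Dye effects and single arrays were not simulated, so that run checks the code and not the calls made here. The labels' set numbers are the basis of the pairing. Before the signs were turned, deviations of same-numbered arrays correlated with r of 0.40, 0.43 and 0.14 over features. This shared part keeps its sign with the dye and not with the treatment. It therefore does not show that both arrays of a set held the same RNA. The dye orientations were compared in a limma fit to single arrays with orientation as a term.

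The members and gene lists were chosen with earlier results of these data known. All members are accounted for. Values on every array are given for members past the threshold, up to the 4 highest and 2 lowest per role. Of the lists, the 3 highest and 3 lowest past the threshold are named, and other genes only as examples chosen after their values were seen. Alternatives tried were missing values allowed (at least 4 arrays), zeros kept, single probes, centring, scaling, single arrays, a dye term, 1 orientation, a robust prior, a 1.5-fold test, and leaving out sets or arrays.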

Additional observations from a re-analysis of the deposited data

Results flagged for a closer look

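The ratio of 2 members, after the sign was turned, differed between the dye orientations (limma on 6 arrays with orientation as a term). Ltb was higher in both, at 0.99 with the treated RNA in Cy5 and 2.03 with it in Cy3, a difference of -1.04 (adjusted p = 0.0424). Ripk4 stood at -0.43 and 0.28, a difference of -0.71 (adjusted p = 0.0424), and as deposited its complete probe leaned to Cy3 on all 6 arrays. With any 1 set left out, 0 members passed this limma test, and 7 to 9 had an unadjusted p under 0.05.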

How the results depend on the processing

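The 8 members above 2-fold (Tnf, Ltb, Tnfsf9, Cd40, Fas, Tnfrsf12a, Tnfrsf1b and Cflar) stayed past the threshold in every alternative run except the test against a 1.5-fold change, which Tnfrsf1b missed (adjusted p = 0.076). The other 8 calls were each lost in some alternative. The cause of these losses was not tested, and some of the fits held fewer sets or arrays. Members past the threshold numbered 16, against 9 in the Cy3 orientation (treated RNA in Cy3) alone, 7 in the 1.5-fold test, and 8 to 15 when a set or array was left out. The 8 left without set 3 are those named above. Without the Cy3 array of set 3 there were 10.

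Ligands numbered 4, against 3 on the Cy3 arrays and in the 1.5-fold test, and 3 to 4 with a set or array left out. On the Cy5 arrays alone 4 ligands passed, but 3 were higher and 1 was lower. Receptors numbered 8, against 5 on the Cy3 arrays, 3 in the 1.5-fold test and 4 to 8 with a set or array left out. Caspases numbered 1, against 2 with the set as a replicate block, 2 with single probes (which counts probes), and 0 with no block, in either orientation alone or in the 1.5-fold test. By limma 2, 1, 2 and 0 caspases had an unadjusted p under 0.05 in these (no block, Cy5, Cy3, 1.5-fold). Leaving out a set or array gave 0 to 1 caspases past the threshold, and 0 to 2 with an unadjusted p under 0.05. With a dye term the count was also 1, but it was Casp6, lower (adjusted p = 0.0473), and Casp4 did not pass (adjusted p = 0.109). Adaptors and kinases numbered 3, against 1 on the Cy3 arrays and in the 1.5-fold test, and 1 to 2 with a set or array left out. Pathway genes numbered 22, against 14 on the Cy5 arrays, 8 in the 1.5-fold test and 13 to 21. All features numbered 1663, against 655 on the Cy3 and 639 on the Cy5 arrays, 141 in the 1.5-fold test and 563 to 1685. Members differing between dye orientations numbered 2, and 0 with any set left out. With the set as a replicate block (consensus correlation -0.44) 16 members passed, but Tnfrsf18 did not (limma adjusted p = 0.0621) and Casp6 did. With no replicate block 12 passed, 11 higher and 1 lower. The negative correlation means that turned arrays of a set tended to deviate in opposite directions. Averaging them cancels this, so the SD of 3 sets and the main p-values leave it out.

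The direction changed for Fadd (0.013) and Tnfrsf13b (-0.16) on 1 of 2 probes each, for Bcl2l1 on 1 of 4 probes (-0.10), and for Tnfrsf18 on the Cy3 arrays alone (0.085). Signal over background is unknown.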
